A study of Mus musculus with 62 samples.

Results

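The levels of N6-methyladenosine (m6A) of each gene in the heart were compared between mice with and without RPL3L. A gene was a member if its m6A-seq peaks, summed, had a mean of at least 10 reads over the 6 libraries, and 1408 of the 1911 genes named in the peak table met this rule. Of the others, 435 had a lower mean and 68 were named only on peaks shared with another gene. The libraries came from the hearts of 3 Rpl3l+/+ and 3 Rpl3l-/- male mice on the C57BL/6J background, 1 library per mouse, and belong to a series of 62 samples. The Rpl3l-/- mice lack exon 2 of Rpl3l, which was deleted with CRISPR in the whole body and shifts the reading frame. The age of the mice used for m6A-seq is not given in the sources used here. No agent was given, and the table holds no input library, so that a peak count reflects both the methylation and the abundance of an RNA.

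m6A is the most common internal modification of mRNA. It is placed by a writer complex built around METTL3 and METTL14 with adaptors such as WTAP, VIRMA and ZC3H13, can be removed by FTO and ALKBH5, and is bound by readers such as the YTH proteins, which affect splicing, translation and decay. RPL3L is a form of the ribosomal protein RPL3 that striated muscle uses in part of its ribosomes, beside RPL3 itself. m6A in a coding region can affect the speed of decoding, so the comparison asks whether methylation of heart mRNAs differs when RPL3L is missing.

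Total counts over all peaks were 660116, 258093 and 205499 in Rpl3l+/+ replicates 1 to 3 and 351313, 335725 and 411388 in Rpl3l-/- replicates 1 to 3. The correlation of log2 CPM, the read count scaled to a common library size, across genes was 0.848 to 0.898 between Rpl3l+/+ replicate 1 and each other library, and 0.940 to 0.966 between the other libraries, so replicate 1 stood apart. The value without it is given beside the fold changes of genes that it moved by more than 1.5 times, and beside the medians of most classes. Rpl3l itself has no peak in the table, so its deletion could not be checked by m6A-seq. In RNA-seq of hearts of these genotypes (4 mice each) Rpl3l had 924 to 1325 CPM in Rpl3l+/+ and 60.2 to 99.6 CPM in Rpl3l-/- libraries. The hearts were checked against marker lists. All 8 of the 12 cardiomyocyte markers that had a peak passed the rule, and together they held 33.5 to 35.9% of counts in Rpl3l+/+ and 35.0 to 38.1% in Rpl3l-/- libraries. Of 10 genes per list, 5 smooth muscle and pericyte markers, 2 atrial markers and 1 endothelial, 1 macrophage and 1 blood marker passed, and no fibroblast, fat, skeletal muscle or airway marker did.

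A small number of cardiac genes held most of the reads. The 10 genes with the highest counts held 52.6% of them. Per length, mt-Nd6, a subunit of respiratory complex I encoded by mitochondrial DNA, had the highest level of these 10, with 58097 CPM per 100 bases of peak. Myh6, the alpha myosin heavy chain, had 37037, and Tpm1, the tropomyosin that covers actin, 35884. The gene with most peaks was Ttn, which encodes the giant spring protein titin, with 119 peaks and 2697 CPM per 100 bases. Ryr2 had 23, Macf1 22 and Dst 18 peaks.

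Of the 3181 peaks, 1731 lay within an exon of a transcript named beside them and 1347 crossed the upstream edge of an exon, so that they began in the intron before it. Only 95 crossed the downstream edge. Peaks at the upstream edge held 41.0% ± 1.96 of counts in Rpl3l+/+ and 41.8% ± 0.954 in Rpl3l-/- hearts (mean ± SD, n = 3 libraries, exact permutation test, two-sided, p = 0.7). Genes on the minus strand held 82.7% ± 1.23 of counts in Rpl3l+/+ and 85.0% ± 0.0498 in Rpl3l-/- hearts, and the libraries did not overlap (exact permutation test, two-sided, p = 0.1, the smallest that 3 against 3 libraries allow). Ttn and mt-Nd6 are on this strand. Of counts on peaks that name 1 gene, Ttn held 11.7 to 13.7% in Rpl3l+/+ and 14.3 to 15.0% in Rpl3l-/- libraries. For mt-Nd6 it was 6.54 to 8.50% and 8.17 to 10.4%. The share of the strand without these genes was not tested.

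To show what was measured, the highest peak is given for the genes with the highest counts and for the genes with the smallest p-values, where more than 2 bases of it were exonic, as read from the GENCODE M21 transcripts (GRCm38, the build of the peaks). The sequences of Kdm3b and Hspa9, which also meet this rule, are not reported here. Capitals mark GGAC, the core of the consensus that METTL3 methylates, and GAGGAG, a hexamer that was chosen after the peaks had been read. All are given 5′ to 3′ on the strand of the gene. The peaks of mt-Nd6 (chrM:13731-13780), Ttn (chr2:76766721-76766771), Myh7 (chr14:54983718-54983767), Hsp90ab1 (chr17:45570511-45570551), Mb (chr15:77022541-77022572), Insr (chr8:3155847-3155889) and Jmy (chr13:93441604-93441621) lie within coding exons on the minus strand, and that of Tti2 (chr8:31161852-31161864) in a coding exon on the plus strand. For Myh6 (chr14:54950629-54950653), Hnrnpa2b1 (chr6:51465216-51465241), Tpm1 (chr9:67031501-67031514) and Atp2a2 (chr5:122489352-122489376), on the minus strand, and Pygb (chr2:150827105-150827141), on the plus strand, the peak crosses the upstream edge of an exon and only its exonic part is shown.
mt-Nd6: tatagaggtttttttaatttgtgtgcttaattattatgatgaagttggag
Ttn: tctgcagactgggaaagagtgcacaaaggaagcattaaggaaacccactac
Myh6: gcacgcatcGAGGAGctgGAGGAGg
Myh7: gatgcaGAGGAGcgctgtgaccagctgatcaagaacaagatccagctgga
Hsp90ab1: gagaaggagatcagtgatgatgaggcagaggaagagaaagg
Mb: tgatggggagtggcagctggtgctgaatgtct
Atp2a2: gaaagaaatgctgaaaatgcaatag
Tpm1: tactctcagaagga
Hnrnpa2b1: atggatacggaagtGGACgtggattt
Pygb: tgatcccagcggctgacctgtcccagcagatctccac
Jmy: aggtaccccgggcaagtc
Insr: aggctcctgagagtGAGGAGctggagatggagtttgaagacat
Tti2: gaccacctttaac

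Among the 13 sequences GGAC occurred in that of Hnrnpa2b1 alone. Across the 1643 peaks that lie wholly in a coding sequence, 14.4% held GGAC on the strand of the gene, against 12.8% of all windows of the same length in the coding sequences of the same transcripts. GGACT was held by 3.71% of peaks and 2.90% of windows. GAGGAG was held by 5.42% of peaks and 3.60% of windows. These shares describe the letters in the windows and locate no methylated base.

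In the comparison of genotypes, 0 of the 1408 genes (0%) differed at an adjusted p-value under 0.05 in edgeR's quasi-likelihood test, in which the smallest adjusted p was 0.577. DESeq2 and limma also called 0 genes. At an unadjusted p under 0.05 edgeR gave 117 genes (8.31%), of which 55 had higher counts in Rpl3l-/- hearts (3.91% of all genes) and 62 lower counts (4.4%). DESeq2 gave 81 such genes, and limma gave 103 on log2(TPM + 1) and 98 on log2(TPM + 10). The fitted log2 fold change was above 0 for 698 genes (49.6%), its median was -0.01, and for 95.5% of genes it lay within 1 in either direction. The median standard error was 0.35, and a test on simulated counts of the same 1408 genes recovered 27% of genes changed by a log2 fold change of 1 and 74% of those changed by 1.5. Changes of the former size would therefore be missed for most genes. The simulation held 100 changed genes of each size, and how many genes change in the hearts is not known. In the measured counts Pygb, Trim12a and Jmy had log2 fold changes of 2.37, -1.77 and 1.58, each at an adjusted p of 0.577 in edgeR. The 74% therefore holds for the simulated counts and does not show that most changes of 1.5 in the hearts would be found. Scaled to library totals in place of TMM, the median of all genes moved to -0.17, and of 163 genes with an unadjusted p under 0.05 only 19 had higher and 144 lower counts. All fold changes of genes below use TMM, and those of classes are set beside the median of all genes.

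**Figure D1:**
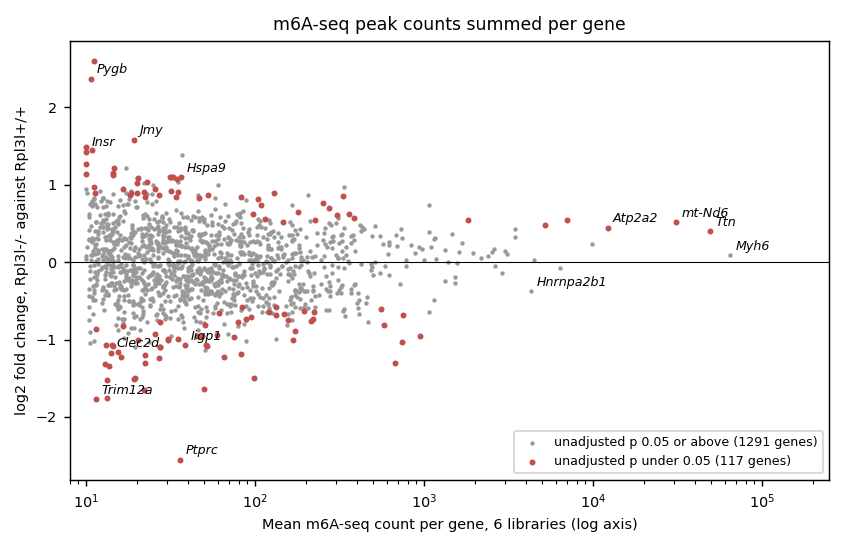
Log2 fold change of each of the 1408 genes (Rpl3l-/- against Rpl3l+/+, vertical axis) against its mean count over the 6 libraries (log axis), with the 117 genes at an unadjusted p under 0.05 in red. No gene passed the adjusted threshold, and Pygb had a large fold change at a mean count near 10, whereas Ttn and mt-Nd6 combined small fold changes with high counts.

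The genes with the smallest p-values and higher counts in Rpl3l-/- hearts included both weakly and strongly covered ones. Pygb, the brain-type glycogen phosphorylase (chr2:150786735-150831758), had a single peak with 6, 1 and 4 reads in Rpl3l+/+ and 19, 8 and 26 in Rpl3l-/- libraries. Its log2 fold change was 2.37 ± 0.56 (SE, unadjusted p = 0.00157 in edgeR), and the libraries did not overlap. Jmy, which encodes a nucleator of actin filaments (chr13:93430101-93499808), had 20.1, 29.5 and 38.0 CPM against 52.0, 103 and 92.3 CPM, a log2 fold change of 1.58 ± 0.41. Here too each Rpl3l-/- library was above each Rpl3l+/+ library. Prepl, a serine hydrolase (chr17:85063470-85090241), had 70.5, 58.9 and 47.5 CPM against 125, 135 and 123.1 CPM, and a log2 fold change of 1.07 ± 0.30. Hspa9, the HSP70 chaperone of the mitochondrial matrix, had 64.8, 70.0 and 57.1 CPM against 97.9, 167 and 149 CPM, and a log2 fold change of 1.10 ± 0.32. Insr, the insulin receptor (chr8:3122061-3279617), had only 12, 2 and 4 reads against 16, 9 and 17, and a log2 fold change of 1.43 ± 0.45. Pygb and Insr had a mean below 10 reads in Rpl3l+/+ libraries and passed the rule through the Rpl3l-/- libraries.

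mt-Nd6 (chrM:13552-14070) was among the most covered genes in every library. Its 3 peaks summed to 61657, 80215 and 72222 CPM in Rpl3l+/+ and to 111056, 87534 and 106702 CPM in Rpl3l-/- libraries. All 3 Rpl3l-/- values lay above all 3 Rpl3l+/+ values. The log2 fold change was 0.51 ± 0.14 (unadjusted p = 0.00381, adjusted p = 0.577, edgeR), 0.42 without Rpl3l+/+ replicate 1 and 0.36 on library totals. The unadjusted p was 0.0347 in DESeq2 and 0.178 in limma on log2(TPM + 1). mt-Nd6 is read from the opposite strand to most mitochondrial genes, and the strand setting of the counting is not given in the sources used here, so reads of transcripts from the other strand cannot be told apart. It is the sole mitochondrially encoded gene in the table.

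The titin gene Ttn (chr2:76703980-76982547) had higher mean levels in Rpl3l-/- hearts at each of its peaks. Its summed level was 110200, 111299 and 132859 CPM in Rpl3l+/+ and 155914, 153048 and 157158 CPM in Rpl3l-/- libraries. The Rpl3l-/- libraries were close to each other and above all Rpl3l+/+ libraries. The log2 fold change was 0.40 ± 0.11 (unadjusted p = 0.00450 in edgeR), 0.35 without Rpl3l+/+ replicate 1 and 0.24 on library totals. The unadjusted p was 0.0751 in DESeq2 and 0.312 in limma on log2(TPM + 1). From the highest peak alone the log2 fold change was 0.079, with an unadjusted p = 0.810 in edgeR. On the TMM scale the mean CPM was higher in Rpl3l-/- hearts at 119 of its 119 peaks. The share of all peaks that were higher on this scale is not given, nor is the count on library totals. The peaks of Ttn share 1 RNA and the same libraries and are not replicates. Of the other genes with most peaks, Ryr2 was higher at 23 of 23, Macf1 at 17 of 22 and Dst at 13 of 18 peaks.

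The 5 genes with the smallest p-values and lower counts in Rpl3l-/- hearts all had few reads. Of these, Trim12a, Kdm3b, Tti2 and Clec2d had a mean below 10 reads in Rpl3l-/- libraries and passed the rule through the Rpl3l+/+ libraries. Trim12a, a member of the TRIM family of ubiquitin ligases (chr7:104299894-104315466), had 57.6, 25.8 and 42.8 CPM in Rpl3l+/+ and 18.4, 6.43 and 12.8 CPM in Rpl3l-/- libraries, a log2 fold change of -1.77 ± 0.49. Kdm3b, a demethylase of histone H3, had 50.4, 47.9 and 47.5 CPM against 21.4, 16.1 and 20.5 CPM, a log2 fold change of -1.32 ± 0.37. Its Rpl3l+/+ libraries agree closely with each other. Tti2, which helps to fold kinases of the mTOR and ATM family (chr8:31150315-31164702), had 67.6, 40.5 and 33.3 CPM against 24.5, 6.43 and 12.8 CPM, a log2 fold change of -1.75 ± 0.50. Iigp1, an interferon-inducible GTPase, had 104, 169 and 190 CPM against 82.6, 73.9 and 59.0 CPM, a log2 fold change of -1.08 ± 0.34. Clec2d, a C-type lectin that natural killer cells recognise (chr6:129180615-129186534), had 54.7, 51.5 and 42.8 CPM against 24.5, 16.1 and 25.6 CPM, a log2 fold change of -1.17 ± 0.37. The libraries of these 5 genes did not overlap between genotypes, as those of 92 of all genes in this direction did not (6.53%), against 105 in the other (7.46%).

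**Figure D2:**
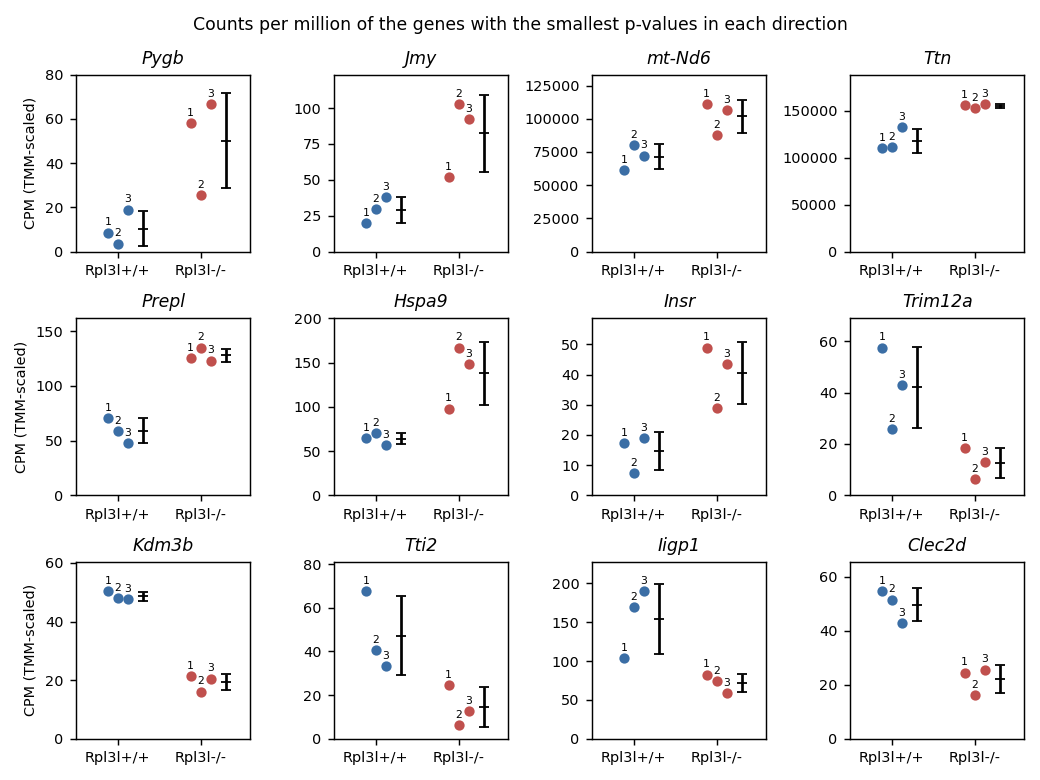
CPM in each library (points, numbered by replicate) with mean ± SD (black, n = 3) for the 7 genes with higher and the 5 with lower counts in Rpl3l-/- hearts that had the smallest p-values, each on a vertical axis from 0. In all 12 genes the libraries of the genotypes do not overlap, and no adjusted p was below 0.577.

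Rpl3, the gene of the ubiquitous form of the protein, had 1 peak with few reads, 14, 4 and 3 in Rpl3l+/+ and 7, 20 and 12 in Rpl3l-/- libraries. This gave 20.1, 14.7 and 14.3 CPM against 21.4, 64.3 and 30.8 CPM and a log2 fold change of 1.14 ± 0.49 (unadjusted p = 0.0420, adjusted p = 0.577, edgeR). The libraries did not overlap, but replicate 1 of each genotype differed by little, and without Rpl3l-/- replicate 2 the log2 fold change was 0.60 (unadjusted p = 0.251, edgeR). Reads that map to several places were kept, so reads of its pseudogenes cannot be told apart. By RT-qPCR the study found more Rpl3 mRNA in Rpl3l-/- hearts, and the RNA-seq used here holds no value for Rpl3. More mRNA and more m6A per mRNA therefore cannot be told apart for this gene. Its mean in Rpl3l+/+ libraries was below 10 reads, so Rpl3 passed the rule through the Rpl3l-/- libraries.

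Genes of the sarcomere, the contractile unit of the heart muscle cell, tended to higher fitted values. Of 46 listed genes 30 had a peak and 29 passed the rule. The fitted value was above 0 for 27, beside 49.6% of all genes. The libraries did not overlap for 5, all higher in Rpl3l-/- hearts, beside 7.46% of all genes in that direction. The median log2 fold change was 0.36, beside -0.01 for all genes. Without Rpl3l+/+ replicate 1 it was 0.16, with 22 of 29 above 0, beside 50.7% of all genes. An unadjusted p under 0.05 with higher counts was found for 3 of 29, beside 3.91% of all genes, namely Ttn, Actn2 and Des. Actn2, the alpha-actinin of the Z disc, had 566, 652 and 856 CPM against 1013, 1044 and 1082 CPM (log2 fold change 0.60 ± 0.23). Des, the intermediate filament desmin, had 99.3, 247 and 181 CPM against 285, 289 and 349 CPM (0.84 ± 0.34, and 0.51 without Rpl3l+/+ replicate 1). Both were above every Rpl3l+/+ library in every Rpl3l-/- library.

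Myh6, the most covered sarcomere gene, had 178860, 165560 and 164460 CPM against 182639, 203345 and 154024 CPM. The groups overlapped, and the log2 fold change of 0.09 ± 0.12 was -0.07 on library totals. For Myh7, the beta myosin heavy chain, which shares much sequence with Myh6 so that reads may be split between them, it was 0.03 ± 0.15, -0.13 on library totals and -0.02 without Rpl3l+/+ replicate 1. Mybpc3, the cardiac myosin-binding protein C, had 0.16 ± 0.17 and Tpm1 0.23 ± 0.14. Tnni3, cardiac troponin I, had 4762, 8535 and 13417 CPM against 11415, 11708 and 12715 CPM (0.43 ± 0.30, and 0.13 without Rpl3l+/+ replicate 1), and Actc1, cardiac actin, 719, 2754 and 3998 CPM against 3608, 3965 and 4819 CPM (0.74 ± 0.46, and 0.29 without it). In both genes Rpl3l+/+ replicate 1 was far below the other libraries. Rpl3l+/+ replicate 3 had the highest level of Tnni3 and a level of Actc1 within the range of the Rpl3l-/- libraries. Ankrd1, a stress-responsive titin-binding protein, had a log2 fold change of -0.19 ± 0.21. The fitted values of the class ran from -0.19 to 1.21. The highest was that of Xirp1, an actin-binding protein of the intercalated disc, at a p of 0.125 in edgeR, and was 0.53 without Rpl3l+/+ replicate 1. The mean of Xirp1 in Rpl3l+/+ libraries was below 10 reads, so it passed the rule through the Rpl3l-/- libraries.

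Genes of calcium cycling, which couples excitation to contraction, had a median log2 fold change of 0.14, beside -0.01 for all genes. Of 30 listed genes 18 had a peak and 16 were tested. The fitted value was above 0 for 13 of 16, beside 49.6% of all genes. The median was 0.17 without Rpl3l+/+ replicate 1, with 11 of 16 above 0, beside 50.7% of all genes. On library totals the median was -0.02, beside -0.17 for all genes on that scale. Atp2a2, the calcium pump SERCA2 of the sarcoplasmic reticulum, had 22265, 31621 and 34982 CPM in Rpl3l+/+ and 38930, 38937 and 43144 CPM in Rpl3l-/- libraries, with no overlap and a log2 fold change of 0.45 ± 0.17 (unadjusted p = 0.0252, edgeR), and of 0.28 without Rpl3l+/+ replicate 1. Atp2a2 was the sole gene of the class with a p under 0.05, or 1 of 16, beside 8.31% of all genes. Ryr2, the calcium release channel, had 7749, 9164 and 8415 CPM against 9365, 10888 and 11546 CPM (0.33 ± 0.16, unadjusted p = 0.0702, edgeR). Casq2, which binds calcium inside the sarcoplasmic reticulum, had 2479, 2688 and 2548 CPM against 3574, 3210 and 3278 CPM (0.38 ± 0.18, unadjusted p = 0.0560, edgeR). S100a1, a calcium sensor of the same organelle, had 0.32 ± 0.21 and Slc8a1, the sodium-calcium exchanger, 0.45 ± 0.28, and 0.21 without that library. The libraries of Ryr2, Casq2 and S100a1 did not overlap either, so that 4 of 16 genes were higher without overlap, beside 7.46% of all genes. The inositol trisphosphate receptor Itpr1 had a log2 fold change of -0.35 ± 0.33 and was lower in every Rpl3l-/- library, the sole such gene of the class, beside 6.53% of all genes.

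Classes of energy metabolism had medians above that of all genes, -0.01. For fatty acid oxidation and lipid use, 16 of 16 tested genes had fitted values above 0 (of 36 listed, 18 had a peak), with a median of 0.63, beside 49.6% of all genes above 0. Of the 16 genes 4 had higher counts at an unadjusted p under 0.05, beside 3.91% of all genes. For the tricarboxylic acid cycle and pyruvate use it was 15 of 15 with a median of 0.47, and for the nuclear-encoded respiratory chain 37 of 39 with a median of 0.39. Without Rpl3l+/+ replicate 1 these were 14 of 16, 11 of 15 and 27 of 39, with medians of 0.35, 0.32 and 0.12, the last of which was below the medians of the sarcomere and calcium classes, 0.16 and 0.17. Higher counts at an unadjusted p under 0.05 were found for 2 of 15 genes of the tricarboxylic acid cycle and 5 of 39 of the respiratory chain, beside 3.91% of all genes. No gene of these classes had lower counts at a p under 0.05, beside 4.4% of all genes. Lpl, lipoprotein lipase, had 168, 254 and 390 CPM in Rpl3l+/+ and 419, 517 and 536 CPM in Rpl3l-/- libraries (log2 fold change 0.89 ± 0.32, unadjusted p = 0.0177, edgeR). Fh1, fumarase, had 77.7, 107 and 105 CPM against 171, 145 and 187 CPM (0.82 ± 0.29). Atp5b, the catalytic subunit of ATP synthase, had 3251, 4676 and 4849 CPM against 6010, 6435 and 6183 CPM (0.55 ± 0.20). In all of these the genotypes did not overlap, whereas Fabp3, the fatty acid-binding protein of the heart and most covered gene of its class, had 322, 976 and 1331 CPM against 921, 1012 and 1377 CPM (0.35 ± 0.42, and -0.06 without Rpl3l+/+ replicate 1). Uqcrh, the most covered respiratory chain gene, had 0.15 ± 0.17, and 0.05 without that library.

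Slc25a4 and Mb were named for their high counts. Slc25a4, the ADP/ATP carrier of the heart, had 11230, 18108 and 20339 CPM against 22968, 23518 and 25564 CPM (log2 fold change 0.54 ± 0.21, unadjusted p = 0.0247, edgeR, and 0.32 without Rpl3l+/+ replicate 1). Mb, the oxygen-binding myoglobin of the cytosol, had 9009, 12047 and 16702 CPM against 17686, 17272 and 17837 CPM (0.48 ± 0.21, unadjusted p = 0.0415, edgeR, and 0.29 without it). Neither gene showed overlap between the genotypes. A further list holds genes with delayed decoding of some codons, chosen from ribosome profiling of hearts of this line. Of 45 listed genes 21 had a peak and 20 passed the rule. The fitted value was above 0 for 19 of 20, beside 49.6% of all genes. Their median log2 fold change was 0.55, beside -0.01 for all genes. Without Rpl3l+/+ replicate 1 it was 0.29, with 17 of 20 above 0, beside 50.7% of all genes. The list shares genes, such as Atp2a2 and Atp5b, with the classes above and is not independent of them.

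**Figure D3:**
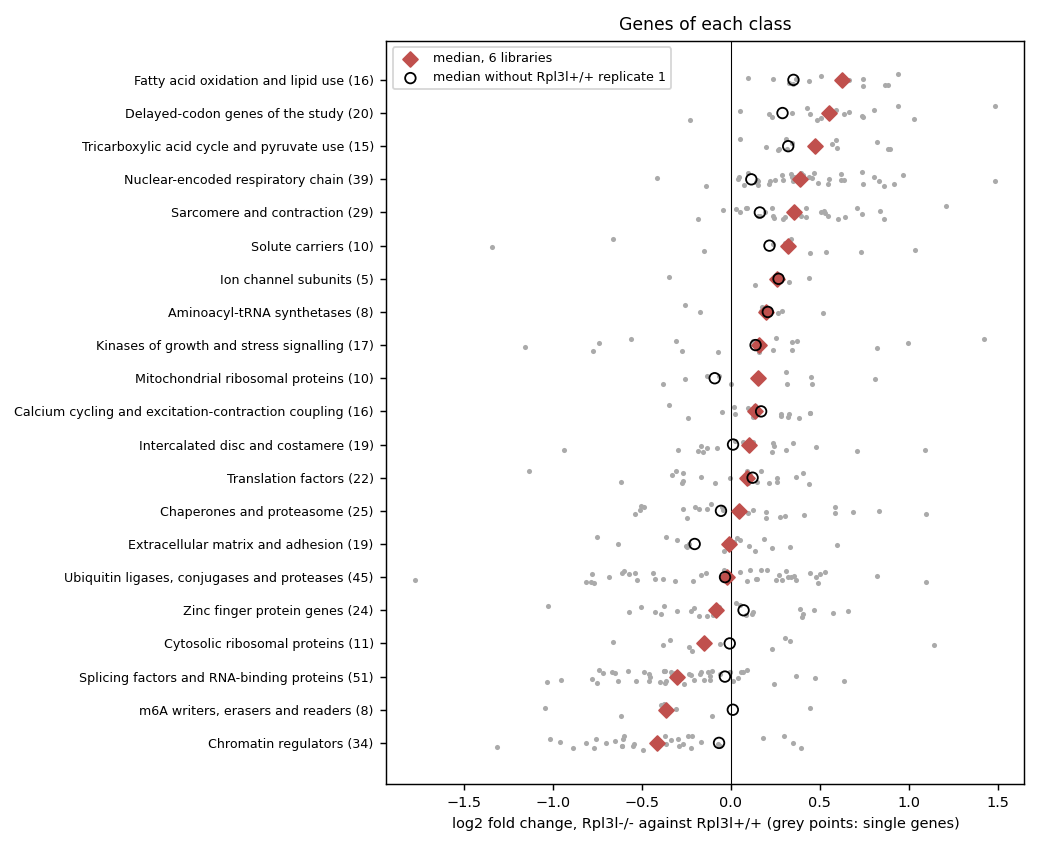
Log2 fold change of each tested gene (grey points) by class, for the 21 classes with at least 5 tested genes (number in brackets), with the median over 6 libraries (diamond) and without Rpl3l+/+ replicate 1 (circle). Medians ran from -0.42 for chromatin regulators to 0.63 for fatty acid oxidation and lipid use, and without that library from -0.20 for extracellular matrix and adhesion to 0.35.

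Genes of chromatin and RNA regulation had the lowest medians, which were close to 0 without Rpl3l+/+ replicate 1. Of 34 tested chromatin regulators, 4 had fitted values above 0 and the median was -0.42. Without that library it was -0.07, with 14 of 34 above 0. Splicing factors and RNA-binding proteins had 9 of 51 above 0 and a median of -0.30, and without it 20 of 51 and -0.03. The median log2 deviation of a class from the mean of its genes shows this by library. For chromatin regulators it was 0.71, -0.08 and -0.16 in Rpl3l+/+ and -0.10, -0.21 and -0.19 in Rpl3l-/- libraries. For fatty acid oxidation it was -0.90, -0.20 and 0.17 against 0.30, 0.26 and 0.38. Atrx, a chromatin remodeller, had 1570, 622 and 580 CPM against 646, 572 and 616 CPM (log2 fold change -0.61 ± 0.36, and 0.02 without that library). Rbm28, an RNA-binding protein of the nucleolus, had 311, 243 and 333 CPM against 181, 215 and 136 CPM without overlap (-0.74 ± 0.28, and -0.70 without it).

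**Figure D4:**
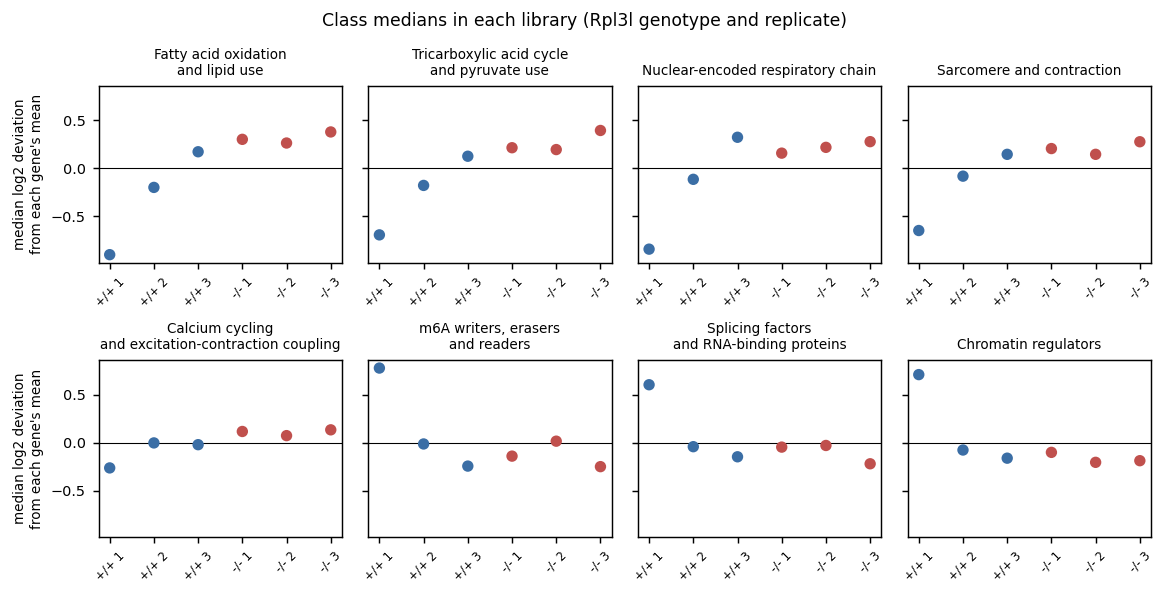
Median log2 deviation of the genes of 8 classes from their own mean over the 6 libraries (vertical axis, log2 of CPM + 1), for each library. Rpl3l+/+ replicate 1 (first blue point) lies below all other libraries in the metabolic, sarcomere and calcium classes and above them in the m6A, splicing and chromatin classes, while Rpl3l+/+ replicate 3 lies close to the Rpl3l-/- libraries (red) in the metabolic and sarcomere classes.

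The machinery of m6A itself was sparsely represented. Of 30 listed symbols of writers, erasers and readers, 9 had a peak and 8 passed the rule. Mettl3, Mettl14, Wtap, Fto and Alkbh5 had none. The fitted value was above 0 for 1 of 8, beside 49.6% of all genes, and the median was -0.37. No p was under 0.05, beside 8.31% of all genes. Without Rpl3l+/+ replicate 1 the median was 0.01 with 4 of 8 above 0. Among writers, Zc3h13 had 1438, 932 and 713 CPM against 796, 871 and 692 CPM (log2 fold change -0.39 ± 0.28, and -0.07 without that library). Virma had 197, 70.0 and 33.3 CPM against 110, 73.9 and 69.2 CPM (-0.35 ± 0.52, and 0.65 without it). The groups overlapped for both. Among readers, Ythdc1, which acts in the nucleus, had 1315, 527 and 376 CPM against 474, 604 and 390 CPM (-0.62 ± 0.41, and 0.10 without it), and Ythdf1, which acts in the cytoplasm, 15.8, 36.8 and 52.3 CPM against 36.7, 51.4 and 41.0 CPM (0.45 ± 0.47, and -0.03 without it). The same library was the extreme one in each. Hnrnpa2b1, a nuclear RNA-binding protein and the most covered gene of the list, had 17792, 9684 and 7645 CPM against 9022, 9783 and 8271 CPM (-0.38 ± 0.27, and 0.06 without that library). Hnrnpc had -0.11 ± 0.23, Prrc2a -0.31 ± 0.27 and Fmr1 -1.05 ± 0.50, which were 0.07, -0.16 and -0.44 without that library. Fmr1 had a mean below 10 reads in Rpl3l-/- libraries and passed the rule through the Rpl3l+/+ libraries.

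Several genes of immune cells were among those with the smallest p-values, and lists of lymphocyte and leukocyte genes and of interferon-response genes were therefore drawn up after the values had been seen. They describe these libraries and support nothing further. Of 46 listed lymphocyte and leukocyte genes 8 were tested, all with fitted values below 0 and a median of -1.16, which was -0.38 without Rpl3l+/+ replicate 1. Ptprc, the pan-leukocyte antigen CD45, had 194, 3 and 0 reads against 4, 7 and 8 reads, so its log2 fold change of -2.55 ± 1.12 came from that library alone and was 1.51 without it. Of 38 interferon-response genes 6 were tested, again all below 0, with a median of -0.96, and of -0.83 without that library. Parp14, an ADP-ribosyltransferase, had 708 ± 179 CPM against 455 ± 38.2 CPM (mean ± SD, n = 3 libraries each) and a log2 fold change of -0.64 ± 0.26 (SE). Gbp3, a guanylate-binding GTPase, had 50.4, 47.9 and 57.1 CPM against 24.5, 25.7 and 23.1 CPM (-1.07 ± 0.35), and Trim30a 209, 133 and 138 CPM against 85.7, 109 and 82.1 CPM (-0.82 ± 0.31). In these 3 genes each Rpl3l-/- library lay below each Rpl3l+/+ library, as was so for 6.53% of all genes. Gbp3 and Ptprc had a mean below 10 reads in Rpl3l-/- libraries and passed the rule through the Rpl3l+/+ libraries. In tissue from whole hearts fewer cells of a type and less RNA per cell cannot be told apart, which holds for every class above.

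The remaining classes are given beside the median of all genes, -0.01, and the 49.6% of all genes above 0. Cytosolic ribosomal proteins had 4 of 11 tested genes above 0 and a median of -0.15. Mitochondrial ribosomal proteins had 6 of 10 above 0 and a median of 0.16, which turned to -0.09 with 3 of 10 above 0 without Rpl3l+/+ replicate 1. For translation factors these were 12 of 22 and 0.09, and for aminoacyl-tRNA synthetases 6 of 8 and 0.20, with medians of 0.12 and 0.21 without that library. Pabpc1, the poly(A)-binding protein, had 292, 55.2 and 76.1 CPM against 73.4, 61.0 and 69.2 CPM (-1.14 ± 0.55, and 0.07 without Rpl3l+/+ replicate 1). On library totals the median of translation factors turned to -0.07. Intercalated disc and costamere genes had a median of 0.10 (12 of 19 above 0), which turned to -0.06 on library totals, and chaperones and proteasome genes 0.05 (13 of 25), which turned to -0.11 on library totals and to -0.05 without Rpl3l+/+ replicate 1. Hsp90ab1, a cytosolic chaperone outside that list with high counts, had -0.08 ± 0.18, and 0.06 without that library. Extracellular matrix genes had a median of -0.01 (9 of 19 above 0), and of -0.20 without that library, and Col6a1, a chain of collagen VI, had 686, 674 and 485 CPM against 383, 472 and 339 CPM (-0.63 ± 0.25, without overlap).

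Solute carriers had a median of 0.32 (7 of 10 above 0), ion channel subunits 0.26 (4 of 5), kinases of growth and stress signalling 0.16 (10 of 17), zinc finger genes -0.08 (11 of 24, and 0.07 without Rpl3l+/+ replicate 1) and genes of ubiquitin ligases, conjugases and proteases -0.02 (22 of 45). The last class held 4 genes with lower and 1 with higher counts at a p under 0.05, or 5 of 45, beside 8.31% of all genes. Slc12a9, a cotransporter, had 60.4, 44.2 and 38.0 CPM against 6.12, 22.5 and 28.2 CPM (log2 fold change -1.34 ± 0.48). Its mean in Rpl3l-/- libraries was below 10 reads, so Slc12a9 passed the rule through the Rpl3l+/+ libraries. Cardiac transcription regulators, immediate-early, histone and mitochondrial-genome genes had 3, 1, 1 and 1 tested members. In all, 982 of the 1408 genes stood in no class.

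To set m6A against the amount of mRNA, counts were compared with RNA-seq of hearts of the same genotypes at 10 weeks of age, 4 mice each. The sources used here do not say whether any mouse gave RNA to both assays, and the fit took the libraries as independent. For each gene the fit held 1 dispersion, the spread between replicates, for both assays. Where m6A-seq varied more than RNA-seq, the p-values relative to mRNA can be too small. The RNA-seq table holds plus-strand transcripts alone, which left 527 genes and none of Ttn, Myh6, Atp2a2 or mt-Nd6. Across these genes the log2 m6A-seq level and the log2 RNA-seq level had r = 0.460 (Spearman's rho 0.389), as a description, and the fold changes of both assays r = 0.0353. RNA-seq itself called 1 of 6303 genes, Rpl3l, in edgeR at an adjusted p under 0.05, and 0 of these 527 (0%). The difference between the m6A and the mRNA fold change passed the threshold for 0 genes (0%) in edgeR and for 1 gene, Pygb, in DESeq2, and had an unadjusted p under 0.05 for 68 (12.9%) in edgeR and 68 in DESeq2. Without Rpl3l+/+ m6A-seq replicate 3 the count in edgeR was 34, without Rpl3l-/- m6A-seq replicate 2 it was 1, and without Rpl3l+/+ m6A-seq replicate 1 it was 0 with 28 genes at an unadjusted p under 0.05.

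Pygb had 1097 to 1355 CPM in RNA-seq of Rpl3l+/+ and 1047 to 1474 CPM in that of Rpl3l-/- hearts. Its mRNA log2 fold change was 0.02 ± 0.13, and m6A relative to mRNA was 2.48 ± 0.51 (adjusted p = 0.0588 in edgeR, 0.00267 in DESeq2). The SE of its m6A alone was 0.56, larger than that of the difference, so these p-values can be too small. Over the alternatives in which it was tested, the adjusted p ran from 0.00267 to 0.629. Without Rpl3l-/- m6A-seq replicate 1 or 3 the mean count of Pygb fell below 10 and it was not tested. It passed the rule through the counts in Rpl3l-/- hearts, where they were higher, so its p-values serve as a description. Kdm3b had -1.43 ± 0.40 relative to mRNA and Tti2 -1.58 ± 0.47, both at an adjusted p of 0.307 in edgeR. Vdac1, the main pore of the outer mitochondrial membrane, had 200, 162 and 281 CPM of m6A against 373, 418 and 336 CPM and 0.88 ± 0.28 relative to mRNA. Clstn1, a membrane protein that binds kinesin, had 36.0, 36.8 and 71.3 CPM against 79.6, 86.7 and 79.5 CPM and 1.10 ± 0.34. Iigp1 was lower in RNA-seq as well, by -0.62 ± 0.22 (unadjusted p = 0.0116, adjusted p = 0.999, edgeR), and its m6A relative to mRNA was -0.38 at a p of 0.367. By class, 6 of 6 fatty acid genes and 5 of 5 of the tricarboxylic acid cycle had values above 0 relative to mRNA, with medians of 0.71 and 0.61, beside 253 of all 527 genes above 0 and a median of -0.03. The medians of their mRNA fold changes were -0.04 and 0.04. Among chromatin regulators it was 0 of 16 with a median of -0.60, beside 0.10 for mRNA. These medians include Rpl3l+/+ m6A-seq replicate 1 and are not given without it. Without that library the m6A median of all 34 tested chromatin regulators was -0.07 in place of -0.42. For fatty acid and tricarboxylic acid cycle genes it was 0.35 and 0.32 in place of 0.63 and 0.47.

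**Figure D5:**
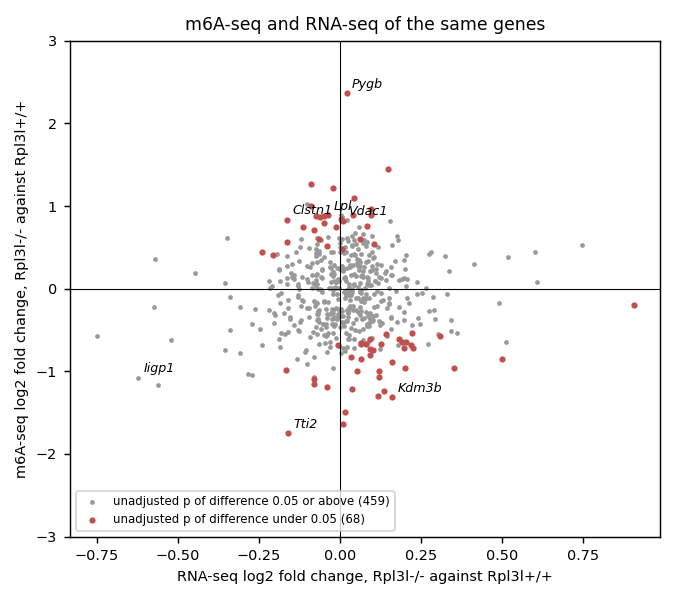
m6A-seq log2 fold change (vertical axis) against RNA-seq log2 fold change (horizontal axis, Rpl3l-/- against Rpl3l+/+ in both) for the 527 genes tested in both assays, with the 68 whose difference had an unadjusted p under 0.05 in red. The RNA-seq values are confined to a narrower range than the m6A-seq values, and no trend between them is visible (r = 0.0353).

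Genes with 1 peak and with several peaks had similar medians. The median log2 fold change was -0.04 for 809 genes with 1 peak and 0.01 for 599 with several, and the share at an unadjusted p under 0.05 was 8.53% and 8.01%. For the 61 genes with 5 or more peaks the median was 0.09, the SD of the fold changes 0.34 against 0.54 for genes with 1 peak, and 2 genes (3.28%) had a p under 0.05. Genes on the plus strand had a median of -0.07 (530 genes) and genes on the minus strand 0.03 (864 genes).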

How the data were processed

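m6A-seq was made from 5 µg of total RNA of each heart by immunoprecipitation with an m6A antibody and cleavage on the beads. The authors trimmed reads with cutadapt, removed rRNA reads, aligned with STAR to GRCm38.p6/mm10 with multiple mapping allowed, called peaks with HOMER and deposited, for each coding-region peak found in all 3 mice of a genotype, a read count and a TPM (versions and strand setting not given in the sources used here). For RNA-seq the authors deposited a table of transcript read counts with 47754 lines for 23877 transcripts. One line of each was kept, and the transcript with the highest mean stood for its gene. The 42 other columns of that table are not used here.

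Counts of the 3137 peaks that name 1 gene were summed per gene. The 44 peaks of several genes were left out. Genes with a mean count of at least 10 were fitted with edgeR 4.0.16 (R 4.3.3, TMM, quasi-likelihood test, Benjamini-Hochberg, threshold 0.05, two-sided), and relative to mRNA as the interaction of genotype and assay. The study itself tested single peaks. The standard error is the log2 fold change divided by the root of F. CPM were divided by TMM-scaled library sizes. DESeq2 1.42.0, limma 3.58.1 on log2(TPM + 1) and log2(TPM + 10), other filters, the highest peak alone, the replicate number as a block and each library left out were alternatives. Positions come from GENCODE M21 (GRCm38). Fits were tested on simulated counts with 200 changed genes. Depth was 205499 to 660116 counts per library.

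The genes and lists were chosen with earlier results of these data known. Genes named are Rpl3l, Rpl3, the m6A, sarcomere and calcium lists, the most covered and smallest-p member of other classes, the 10 most covered genes, the 5 with most peaks and the 5 smallest p-values per direction, with values for those that results turn on. Of the immune lists and of the fits relative to mRNA, the genes named were chosen after their values were seen. Some genes that this rule names are not reported here.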

Additional observations from a re-analysis of the deposited data

How the results depend on the processing

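Under each alternative 0 genes passed the adjusted threshold in the comparison of genotypes, and the number with an unadjusted p under 0.05 ran from 38 to 304 when 1 library was left out (304 without Rpl3l+/+ replicate 3, 38 without Rpl3l-/- replicate 3). Relative to mRNA, DESeq2 called 1 gene, and leaving out 1 library gave 0 to 34 calls. The cause was not tested. The replicate numbers are shared by the genotypes, but deviations of same-numbered libraries correlated at 0.24, 0.04 and 0.21 and Rpl3l+/+ replicate 2 correlated best with Rpl3l-/- replicate 3. With the replicate block 0 genes were called, and 144 had an unadjusted p under 0.05. Scaled to library totals, log2 fold changes turned to -0.074 for Myh6, -0.13 for Myh7 and -0.0098 for Uqcrh. With limma on TPM they were -0.049 and -0.049 for Myh6 and -0.12 and -0.12 for Myh7 at pseudocounts of 1 and 10, and 0.19 for Ptprc at 1. From peaks at upstream exon edges alone Myh7 had -0.34 and Hnrnpc 0.0054.

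With 1 library left out, the log2 fold change ran from -3.09 to 1.51 for Ptprc, from -0.64 to 0.056 for Hnrnpa2b1, from -0.24 to 0.066 for Hnrnpc, from -0.76 to 0.65 for Virma, from -0.96 to 0.10 for Ythdc1, from -0.033 to 0.83 for Ythdf1, from -0.011 to 0.19 for Myh6, from -0.050 to 0.082 for Myh7, from -0.26 to 0.064 for Hsp90ab1, from -0.056 to 0.77 for Fabp3, from -0.89 to 0.022 for Atrx and from -1.53 to 0.070 for Pabpc1. The other genes whose fold change is given kept their direction under each alternative run. Counts per library limit the weakly covered genes most.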

Other observations

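Along the coding sequence, from its 5′ to its 3′ end in 5 equal parts, 21.2%, 22.3%, 20.3%, 17.5% and 18.6% of the peaks that lie wholly within it were found. The first part held 10.3 to 11.8% of the counts of these peaks in Rpl3l+/+ and 10.4 to 10.9% in Rpl3l-/- libraries.

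The highest fitted value of all tested genes belonged to Hjv, which encodes hemojuvelin, a co-receptor in iron regulation, and which was chosen after its value was seen. It had 1, 4 and 4 reads in Rpl3l+/+ and 5, 14 and 39 in Rpl3l-/- libraries, or 1.44, 14.7 and 19.0 CPM against 15.3, 45.0 and 100.0 CPM. Its mean in Rpl3l+/+ libraries was below 10 reads, so Hjv passed the rule through the Rpl3l-/- libraries. The groups overlapped in CPM, and the log2 fold change was 2.60 ± 0.84 (unadjusted p = 0.0103, adjusted p = 0.577, edgeR), and 1.70 without Rpl3l+/+ replicate 1.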
